A study of Homo sapiens with 4 samples.

Results

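BCL6 occupancy was examined at the genes of a small antagonistic network, the 4 inhibitor-of-DNA-binding genes ID1, ID2, ID3 and ID4 and the 3 E protein genes TCF3, TCF4 and TCF12. The 7 genes are the members of these families, under a rule that uses no measured value, out of 19974 that RefSeq lists as protein-coding on the autosomes or chromosome X. Each gene was given every BCL6 peak whose summit lay in the gene or within 50 kb of either RefSeq end on hg38. CUT&RUN, in which an antibody tethers a nuclease that releases nearby chromatin fragments for sequencing, was applied to nuclei from the established line SUDHL5, which derives from a diffuse large B-cell lymphoma, for a study of a compound that links lysine acetyltransferases to BCL6. By their labels 2 libraries used an antibody to BCL6 and 2 used normal rabbit IgG as control, each pair being biological replicates, and no treatment or genotype is named. All are the same cell line, so the values describe SUDHL5 alone. Only the BCL6 peak lists enter the results, IgG being not analysed here, and no comparison with a control could be made. Nothing in the labels says whether the replicates came from separate cultures.

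BCL6 is a zinc finger repressor that germinal centre B cells and many lymphomas derived from them depend on. E proteins are basic helix-loop-helix factors that bind E-boxes in DNA as dimers and drive B cell development. ID proteins have the helix-loop-helix but no basic region, so they pair with E proteins and keep them off DNA. High ID levels therefore lower E protein activity, and in lymphocytes the balance of both families bears on cell fate.

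BCL6 peaks stood at the promoter side of ID2 in both replicates and along TCF4 in both replicates. At ID3, TCF3 and TCF12 each peak was in 1 list only, and at ID1 and ID4 neither list had a peak. In all, 29 peaks fell in the windows, 17 of the 5237 deposited for replicate 1 and 12 of the 3536 deposited for replicate 2. Of these, 10 belonged to 5 reproducible regions, which are merged regions with at least 1 bp shared that hold a peak of each list. ID2 had 2 of these regions and TCF4 had 3. Of all protein-coding genes, 10.2% had a reproducible region under the same rule, 29.5% had a replicate 1 peak and 23.3% a replicate 2 peak. Each replicate list alone had peaks at 5 of the 7 genes, the same 5 in both, whereas 2 of the 7 had a reproducible region.

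RefSeq promoters (GRCh38.p14, the assembly of hg38) were available for all 7 genes, with 20 annotated starts, of which 10 are those of TCF4 and 5 those of TCF12. Each window runs from 250 bases before to 50 after a start. Those shown are the 3 windows that a peak overlapped, the window nearest a reproducible region at ID2 and at TCF4, and that of ID3 for comparison with its paralog. Capitals mark matches on either strand to the E-box CANNTG or to TTCNNNGAA, a relaxed form of the BCL6 core TTCCTAGAA, so every core match is also a relaxed match.
ID2 (chr2:8681806-8682105, plus strand): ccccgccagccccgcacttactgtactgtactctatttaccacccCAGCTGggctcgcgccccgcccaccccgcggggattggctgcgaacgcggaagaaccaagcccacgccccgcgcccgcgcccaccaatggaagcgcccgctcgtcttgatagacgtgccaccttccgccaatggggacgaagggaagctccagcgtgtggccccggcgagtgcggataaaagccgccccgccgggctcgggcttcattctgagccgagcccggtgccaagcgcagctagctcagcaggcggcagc
ID3 (chr1:23559452-23559751, minus strand): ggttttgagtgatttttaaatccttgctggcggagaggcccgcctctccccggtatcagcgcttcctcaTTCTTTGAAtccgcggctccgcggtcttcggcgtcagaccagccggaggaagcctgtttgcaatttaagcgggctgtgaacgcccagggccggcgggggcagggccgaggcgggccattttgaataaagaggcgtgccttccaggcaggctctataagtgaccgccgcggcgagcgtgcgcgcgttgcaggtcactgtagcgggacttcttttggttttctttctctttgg
TCF4 (chr18:55588143-55588442, minus strand): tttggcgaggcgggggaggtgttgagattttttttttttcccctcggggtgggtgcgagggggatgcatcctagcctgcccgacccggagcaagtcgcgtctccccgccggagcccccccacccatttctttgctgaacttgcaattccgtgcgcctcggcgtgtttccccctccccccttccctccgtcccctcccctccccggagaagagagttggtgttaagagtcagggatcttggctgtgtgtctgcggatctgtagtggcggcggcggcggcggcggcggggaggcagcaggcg
TCF4 (chr18:55510723-55511022, minus strand): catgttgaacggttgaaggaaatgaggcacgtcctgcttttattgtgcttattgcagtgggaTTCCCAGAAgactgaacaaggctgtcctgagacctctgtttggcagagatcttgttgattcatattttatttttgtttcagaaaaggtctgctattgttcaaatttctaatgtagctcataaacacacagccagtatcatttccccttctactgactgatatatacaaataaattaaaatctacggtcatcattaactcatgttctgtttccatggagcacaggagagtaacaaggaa
TCF4 (chr18:55321792-55322091, minus strand): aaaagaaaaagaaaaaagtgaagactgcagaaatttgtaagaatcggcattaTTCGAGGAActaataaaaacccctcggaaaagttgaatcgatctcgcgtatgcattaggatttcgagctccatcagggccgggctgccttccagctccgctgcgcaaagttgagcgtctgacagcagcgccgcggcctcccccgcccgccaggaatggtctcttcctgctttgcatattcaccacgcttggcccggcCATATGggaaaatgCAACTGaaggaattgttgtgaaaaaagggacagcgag
TCF12 (chr15:56917840-56918139, plus strand): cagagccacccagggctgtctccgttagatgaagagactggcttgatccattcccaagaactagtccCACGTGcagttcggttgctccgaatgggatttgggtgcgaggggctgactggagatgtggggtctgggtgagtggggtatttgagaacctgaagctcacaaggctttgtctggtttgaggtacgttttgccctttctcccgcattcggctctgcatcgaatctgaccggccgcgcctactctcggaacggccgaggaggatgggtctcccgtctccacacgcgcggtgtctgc

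None of the 20 windows held TTCCTAGAA, which stood in 0.369% of 34961 RefSeq promoters of the same length, chromosome 8 not used. The relaxed letters were in the ID3 window as TTCTTTGAA and in 2 of the 10 TCF4 windows, against 7.66% of all promoters. E-boxes were in the ID2 and ID4 windows, in 7 of 10 TCF4 windows and in 2 of 5 TCF12 windows, against 68.7% of all promoters. CAGGTG, which is one of the E-box forms, was in none of the 20, against 20.6% of all promoters. A match is a description of these letters and not a site, and most summits lay outside the windows.

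ID2 encodes the inhibitor that opposes E proteins in innate lymphoid and myeloid development. Its gene lies on chromosome 2 from 8682056 to 8684461 (2.41 kb) on the plus strand. The stronger region spanned 8680651 to 8681804, and its summit lay 712 bp upstream of the annotated ID2 start. The authors' ratio of the summit over the background of their peak caller, called fold enrichment, reached 4.31 (replicate 1) and 5.02 (replicate 2). The −log10 q was 19.3 in replicate 1 and 14.3 in replicate 2, above 97.4% and 95.6% of the peaks of those lists. Both replicates had their summit at nearly the same base, 13 bp apart, where the median distance over 1311 reproducible regions was 91 bp. Both peaks also ended at base 8681804, a feature shared by 24 of the 1311 reproducible regions (1.83%), this one included. Their starts differed, and an exact shared start was found at 17 regions (1.30%). These counts were not planned and describe a feature picked from the ID2 peaks themselves.

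The summit pileup, the number of fragments stacked at the summit, was 71 in replicate 1 (95% Poisson interval 55.5 to 89.6) and 45 in replicate 2 (32.8 to 60.2). It exceeded that of 99.2% of replicate 1 peaks and 95.7% of replicate 2 peaks. That background, which may come from IgG or from the library itself since the control is not given in the labels, was also high at this place, with 15.7 fragments (replicate 1) and 8.16 (replicate 2), above 97.4% and 84.1% of the peaks. The region therefore ranked 116th of 1311 reproducible regions by the smaller −log10 q but 264th by the smaller fold enrichment. How far the background moves with the pileup was not tested.

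The weaker ID2 region spanned 8678942 to 8679499, with its summit 2.94 kb upstream of the start. Both replicates gave it nearly the same fold enrichment, 3.99 and 3.96. Its pileups were 27 (17.8 to 39.3) and 23 (14.6 to 34.5), and its −log10 q was 6.12 and 4.92. A peak of replicate 2 alone lay inside ID2, 888 bp after the start, with a fold enrichment of 3.79 and a pileup of 17 (9.90 to 27.2). No further peak of either list lay in the 102 kb window of ID2.

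All 4 peaks of the 2 regions had their summits inside ID2-AS1, a long noncoding RNA gene that spans 8670984 to 8681863. The stronger summit was 517 bp from the annotated ID2-AS1 start and 712 bp from that of ID2. The peaks cannot be given to ID2 or to ID2-AS1 by position. The ID2 promoter window begins at base 8681806, just past the end of the stronger peaks, so no peak covered it. A reproducible region with its summit within 1 kb of an end was found at 2.64% of protein-coding genes, and 2 or more such regions within 5 kb of an end at 0.471% (94 genes), ID2 among them. The second of these windows was chosen after the ID2 values were seen.

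**Figure D1:**
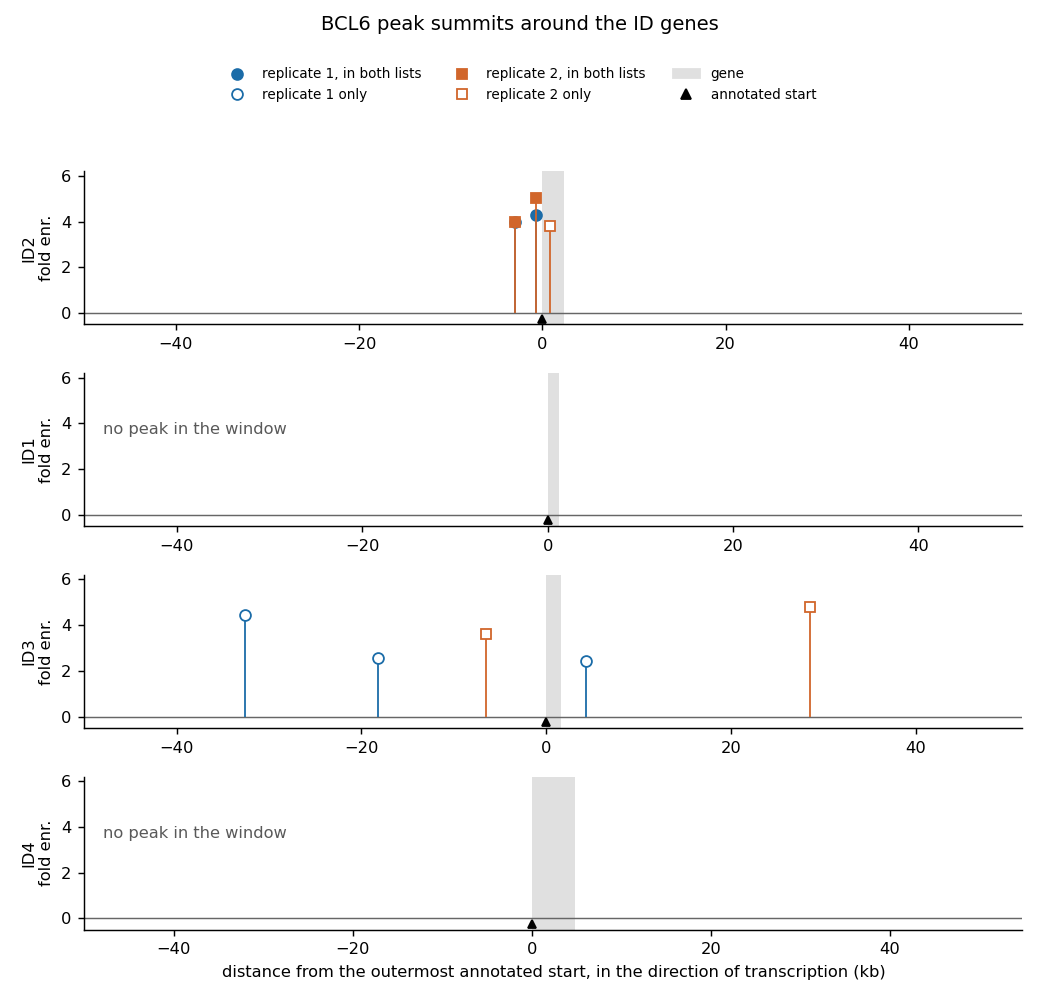
Summits of BCL6 peaks around ID2, ID1, ID3 and ID4, by distance in kb from the annotated start in the direction of transcription (x axis) and fold enrichment (y axis), with circles for replicate 1 and squares for replicate 2, filled where a peak belongs to a region of both lists. The 5 ID2 peaks lie between 3.03 kb before and 0.888 kb after the start, the 5 ID3 peaks are spread and open, and ID1 and ID4 have none.

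Among the paralogs, ID3 stood apart from ID1 and ID4. ID3, an E protein inhibitor that is recurrently mutated in Burkitt lymphoma, lies on chromosome 1 from 23557926 to 23559501 (1.58 kb) on the minus strand. Replicate 1 had 3 peaks in its window and replicate 2 had 2, and none of them overlapped. The replicate 1 peak closest to the gene had its summit 2.76 kb beyond the 3′ end, with a fold enrichment of 2.41 and a −log10 q of 3.03. Its pileup of 37 (26.1 to 51.0) was larger than the 27 of the weaker ID2 region, but its background of 14.7 was above that of 96.8% of peaks, and its fold enrichment was above that of 4.97%.

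The other ID3 peaks of replicate 1 lay 18.2 and 32.5 kb from the gene, with fold enrichments of 2.54 and 4.46. In replicate 2 a peak 6.45 kb upstream had a fold enrichment of 3.62 with a pileup of only 10 (4.80 to 18.4). The other, 27.0 kb away with 4.77, had its summit inside E2F2, which encodes a cell cycle transcription factor, 287 bp from an annotated E2F2 start. Of the 5 ID3 summits, 3 lay inside long noncoding genes and 1 inside E2F2, so nearness to ID3 does not assign them to it.

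The 50 kb limit matters for ID3. Just inside it the outermost peak was that at 32.5 kb. Just outside it, replicate 2 had a peak at 53.0 kb with a fold enrichment of 6.89 and a −log10 q of 13.6, larger than those of any peak in the ID3 window. A reproducible region followed at 54.1 kb, with fold enrichments of 3.19 in replicate 1 and 2.87 in replicate 2. With a window of 100 kb, ID3 would be the third gene with a reproducible region, when 15.1% of all protein-coding genes have one.

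ID1, on chromosome 20 from 31605289 to 31606510, and ID4, on chromosome 6 from 19837370 to 19842197, lay in stretches without peaks. ID1 is a target of bone morphogenetic protein signalling, and ID4 is best known in the nervous system and mammary gland. The nearest peak to ID1 was 2127 kb away in replicate 1 and 1803 kb away in replicate 2. For ID4 these distances were 1450 kb and 1495 kb. An absence from the lists does not show an absence of BCL6, since the lowest pileup of any peak was 8 in each list and read depth is unknown. Of protein-coding genes under 10 kb, the class of all 4 ID genes, 8.77% had a reproducible region and 31.1% a peak of either list.

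**Figure D2:**
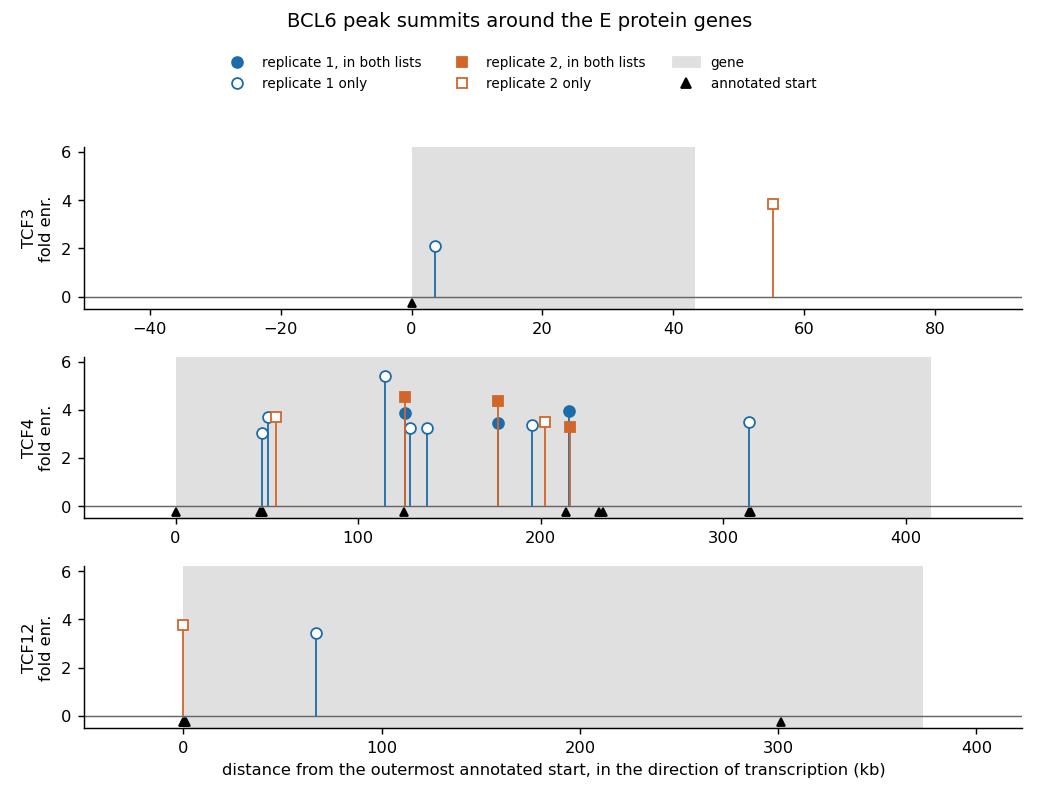
Summits of BCL6 peaks at TCF3, TCF4 and TCF12, by distance in kb from the outermost annotated start in the direction of transcription (x axis, scaled to each gene) and fold enrichment (y axis), with circles for replicate 1, squares for replicate 2 and filled symbols for regions of both lists. The 15 TCF4 summits lie between 47.5 and 314 kb from the outermost start, and TCF3 and TCF12 have 1 open symbol per replicate.

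TCF4 held most of the peaks at the E protein genes. It encodes an E protein of B cells and plasmacytoid dendritic cells and lies on chromosome 18 from 55222185 to 55635957 (414 kb) on the minus strand. Replicate 1 had 10 peaks there and replicate 2 had 5, all of them inside the gene. They made up 10 of the 67 replicate 1 peaks of chromosome 18 (14.9%, Wilson 95% interval 8.31 to 25.3) and 5 of the 48 replicate 2 peaks (10.4%, 4.53 to 22.2), while the gene takes 0.516% of the span between the outermost protein-coding genes of the chromosome. All of the summits lay between 47.5 and 314 kb from the outermost start, and the last 99.5 kb of the gene had none.

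The 3 reproducible regions of TCF4 were similar in fold enrichment and pileup, and less so in −log10 q. The one from 55510027 to 55510567 had fold enrichments of 3.86 and 4.54 and pileups of 21 and 17, with replicate summits 17 bp apart. Its summit lay 485 bp downstream of an annotated start at 55510772, whose window holds TTCCCAGAA as its only marked letters. The one from 55419463 to 55420642 had fold enrichments of 3.94 and 3.29 and pileups of 23 and 17, but its replicate summits were 599 bp apart, farther than in 93.7% of the reproducible regions. The one from 55458935 to 55459777 had 3.46 and 4.38 with pileups of 19 and 17, and lay inside both TCF4 and TCF4-AS1, 37.0 kb from the nearest TCF4 start. By fold enrichment the region from 55419463 was first in replicate 1 and last in replicate 2. That from 55510027 exceeded that from 55458935 in both. The smaller −log10 q was 4.42 at the region from 55510027, 3.21 at that from 55458935 and 2.42 at that from 55419463. The last of these values was above that of 21.8% of the reproducible regions.

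The remaining TCF4 peaks were in 1 list only. The strongest, in replicate 1 from 55521045 to 55521385, had a fold enrichment of 5.42 and a −log10 q of 7.08, which was above the values of all 3 reproducible TCF4 regions in that replicate, and no replicate 2 peak overlapped it. The other 4 peaks of replicate 1 alone that lay farther than 1 kb from a TCF4 start had fold enrichments of 3.25 to 3.68 and pileups of 13 to 15, and the 2 of replicate 2 alone had 3.49 and 3.69 with pileups of 18 and 13. A replicate 1 peak from 55321521 to 55322348 covered the start at 55321841, with a fold enrichment of 3.50 and a pileup of 30 (20.2 to 42.8), and its window holds TTCGAGGAA and 2 E-boxes. A replicate 1 peak from 55588057 to 55588440 overlapped the window of the start at 55588192, with 3.04 and a pileup of 17, and that window has no marked letters. Within 1 kb of an annotated TCF4 start lay 3 of the 10 replicate 1 summits (30%, 10.8 to 60.3) and 1 of the 5 replicate 2 summits (20%, 3.62 to 62.4). Of all peaks, chromosome 8 not used, 32.3% and 35.6% lay within 1 kb of a RefSeq start.

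TCF4 is long, so its number of peaks was set beside that of the 3351 protein-coding genes over 100 kb. Of these, 12 had more than 10 replicate 1 summits in the gene and 26 had more than 5 replicate 2 summits. Per 100 kb of gene, TCF4 had 2.42 summits in replicate 1 and 1.21 in replicate 2, and 98.0% and 96.6% of the long genes had fewer. Most of these had none, since 77.5% and 82.5% of the long genes had no summit in the gene. Of the long genes, 33% had a replicate 1 peak in the gene or within 50 kb, 26.3% a replicate 2 peak, 39.5% a peak of either list and 12.7% a reproducible region. TCF12, nearly as long at 373 kb, had 1 peak per replicate.

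TCF12, which encodes an E protein of T and B cell development, lies on chromosome 15 from 56918090 to 57291310 on the plus strand. Replicate 1 had a peak inside the gene, 65.7 kb downstream of the nearest annotated start, with a fold enrichment of 3.45 and a pileup of 16 (9.15 to 26.0). Replicate 2 had a peak from 56917874 to 56918182 whose summit was 74 bp before the first TCF12 start and inside the divergent noncoding gene TCF12-DT, with 3.78 and a pileup of 16. It overlapped the first TCF12 promoter window, which holds the E-box CACGTG. Peaks overlapped 2 of the 20 windows of the 7 genes in replicate 1, both of TCF4, and 1 in replicate 2, against 3.67% and 2.83% of all RefSeq promoters. The TCF12 peaks lay about 67 kb from one another, so the replicates did not mark the same place.

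TCF3 encodes the E protein that B cell commitment depends on. It lies on chromosome 19 from 1609292 to 1652615 (43.3 kb) on the minus strand. The replicate 1 peak inside it, 3.64 kb downstream of the start, had a fold enrichment of 2.10, a −log10 q of 1.38 and a background of 13.8. Of replicate 1 peaks, 1.13% had a lower −log10 q and 0.535% a lower fold enrichment. The replicate 2 peak lay 11.9 kb beyond the 3′ end, inside UQCR11, which encodes a subunit of respiratory complex III, with a fold enrichment of 3.82 and a pileup of 17. Among protein-coding genes of 10 to 100 kb, the class of TCF3, 39.7% had a peak of either list and 10.1% a reproducible region. The nearest reproducible region was 477 kb from TCF3, and 710 kb from TCF12.

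**Figure D3:**
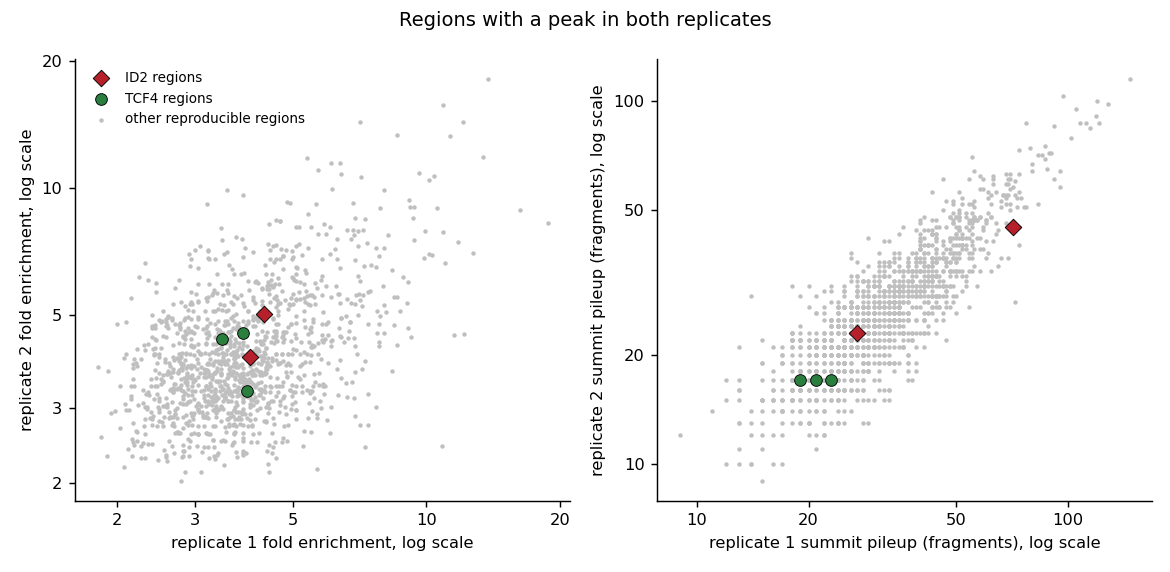
Fold enrichment (left) and summit pileup in fragments (right) of the 1311 reproducible regions, with replicate 1 on the x axis and replicate 2 on the y axis, both logarithmic, diamonds for the 2 ID2 regions, circles for the 3 TCF4 regions and grey points for all others. In fold enrichment the ID2 and TCF4 regions lie close together near the centre, with the stronger ID2 region the highest of them in both replicates. In pileup that region, with 71 and 45, stands above the TCF4 regions, with 19 to 23 and 17.

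ID2 was then set against its paralogs and the E proteins. By reproducible regions, ID2 had 2, its paralogs ID1, ID3 and ID4 had none, and the E proteins TCF3, TCF4 and TCF12 had 0, 3 and 0. The smaller of both fold enrichments was 4.31 and 3.96 for the ID2 regions and 3.86, 3.46 and 3.29 for the TCF4 regions, where the median over all reproducible regions was 3.30. By pileup the TCF4 regions were low, above 7.02% to 17.6% of reproducible regions in replicate 1 and above 10.8% in replicate 2. The weaker ID2 region lay above 33.8% and 35.2%, and the stronger above 96.7% and 89.55%. Median pileups of reproducible regions were 31 and 26. The stronger ID2 region exceeded the TCF4 region with the largest smaller value (3.86 and 4.54) 1.12-fold in replicate 1 and 1.11-fold in replicate 2. In replicate 1 another TCF4 region was higher than that one, at 3.94. Thus the stronger ID2 region, with 4.31 and 5.02, had the highest fold enrichment of the 5 member regions in each replicate. The margin was small, and whether it exceeds the error of the ratio was not tested. The weaker ID2 region was not separated from TCF4, since its 3.96 in replicate 2 was below 2 TCF4 regions (4.38 and 4.54). By pileup 1 of the 2 ID2 regions was separated: the intervals of 55.5 to 89.6 and 32.8 to 60.2 at the stronger region lay above those of all 3 TCF4 regions in the same replicate, whose upper bounds reached 34.5 in replicate 1 and 27.2 in replicate 2. Pileup is not corrected for background, which at the stronger ID2 region was 15.7 in replicate 1 and 8.16 in replicate 2. At the TCF4 regions the background was lower, 4.70 to 5.10 in replicate 1 and 2.97 to 4.47 in replicate 2. The weaker ID2 region, with pileup intervals of 17.8 to 39.3 and 14.6 to 34.5, overlapped the TCF4 regions. These intervals cover counting error only, and with 1 library per replicate no test between regions was made. At a −log10 q of at least 5 or 10 in both lists, ID2 alone among the 7 genes had a reproducible region, against 4.49% and 2.39% of all protein-coding genes.

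Per length of window at 50 kb, the 2 families were not separated. The ID windows, 410 kb in all, held 5 peaks in each replicate, or 1.22 per 100 kb (95% Poisson interval 0.396 to 2.85). The E protein windows, 1130 kb in all, held 12 peaks in replicate 1, or 1.06 per 100 kb (0.549 to 1.85), and 7 in replicate 2, or 0.619 (0.249 to 1.28). The intervals of both families overlapped in both replicates. This was assessed for the 50 kb windows only. The density of E protein over ID windows, both replicates pooled, was 0.689 here, 0.260 with 10 kb and 0.205 in gene bodies. The gene body value rests on 1 ID peak, that of replicate 2 inside ID2. Replicate 1 had no peak in an ID gene body, so it gives no such ratio. The merged windows of all protein-coding genes had 0.256 and 0.175 peaks per 100 kb. Within each family the density was uneven, since ID2 and ID3 held all peaks of the ID genes and TCF4 held 10 of 12 and 5 of 7 of those of the E protein genes.

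**Figure D4:**
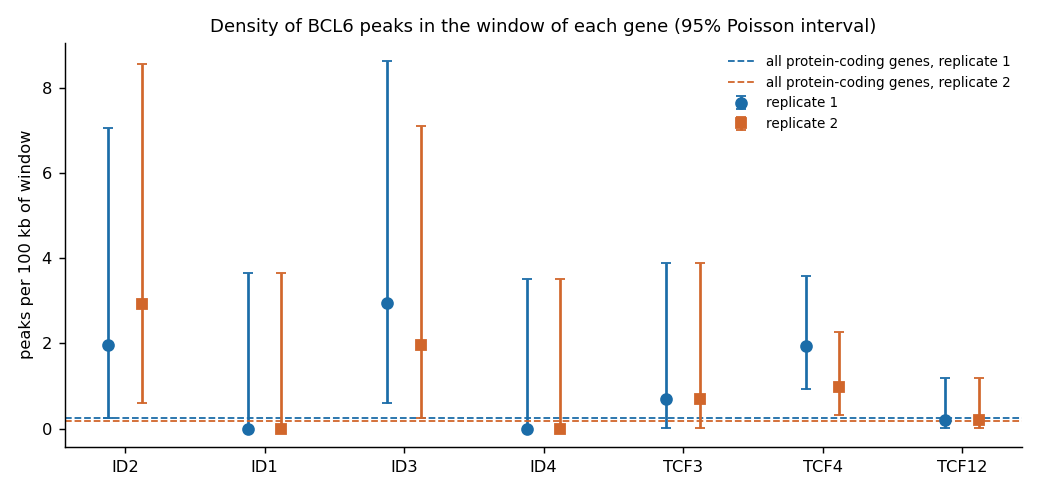
BCL6 peaks per 100 kb of window for each gene, with circles for replicate 1, squares for replicate 2, 95% Poisson intervals as bars and dashed lines for the windows of all protein-coding genes (0.256 and 0.175). ID2, ID3 and TCF4 lie at 0.973 to 2.95, TCF12 lies at 0.211 in both replicates, close to the dashed lines, and ID1 and ID4 lie at 0.

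Other genes of the network were counted under the same rule, as 6 lists of 87 genes drawn up with earlier results of these data known, so their shares are descriptions. A region within 50 kb of a gene need not belong to that gene. Among the bHLH partners of E proteins, most of which are factors of other tissues, 3 of 20 genes had a reproducible region (15%, Wilson 95% interval 5.24 to 36.0), beside 10.2% of all protein-coding genes. They were the leukaemia-associated factors LYL1, with fold enrichments of 6.60 and 5.45 at 14.2 kb, and TAL2, with 4.57 and 4.04 at 289 bp, and BHLHA15, a factor of secretory cells, with 6.60 and 3.19 at 11.1 kb. The other genes of the list, TAL1 and the muscle, nerve and mesoderm factors among them, had none, and no contrast between tissues was tested. Other helix-loop-helix repressors had 2 of 12 (16.7%, 4.70 to 44.8), namely BHLHE41, with 8.03 and 5.28 at 31.6 kb, and HES7, with 2.27 and 3.94 inside the gene.

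E protein targets in B cells had a region at 7 of 20 (35%, 18.1 to 56.7), a count that was 3 with summits of the replicates within 200 bp, 3 in gene bodies and 2 at a −log10 q of at least 5. Of all protein-coding genes, 7.72%, 3.28% and 4.49% had a region under these 3 settings, and 7.02% by reciprocal overlap of 50%. Ranked by the smaller of both values, the first 4 were the chemokine receptor gene CXCR4 (9.35 and 8.47 at 8.73 kb), EBF1, which encodes a B lineage factor (3.95 and 5.12 inside the gene), the adaptor gene BLNK (5.46 and 3.26 at 7.55 kb) and FOXO1 (4.79 and 3.03 inside the gene). POU2AF1, CD22 and CD79B were the others. Of this list, 6 genes are over 100 kb long. E protein cofactors had 4 of 10 (40%, 16.8 to 68.7), of which 5 are over 100 kb long, but 2 by reciprocal overlap of 50% and 0 in gene bodies or at a −log10 q of at least 5. LMO2, a bridging factor of E protein complexes, had 3.65 and 4.96 at 340 bp, HDAC1 had 3.04 and 3.85 at 35.1 kb, RUNX1T1 had 2.61 and 4.94 at 209 bp, and the acetyltransferase gene KAT2B had 2.40 and 2.83 at 565 bp.

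The genes of SMAD and bone morphogenetic protein signalling, which induces ID genes, had 1 of 17 (5.88%, 1.05 to 27.0). It was SMAD6, which encodes an inhibitory SMAD, with 2.58 and 4.81 at 239 bp. In single lists 7 of the 17 had a peak in replicate 1 and 3 in replicate 2, against 29.5% and 23.3% of all protein-coding genes. E protein and ID targets of T cells, which serve as a list of another cell type, had 4 of 8 (50%, 21.5 to 78.5), among them CD3E (3.26 and 3.19 inside the gene), CD4 (3.16 and 3.65 at 31.5 kb) and PTCRA (2.18 and 3.75 at 3.75 kb). The T cell count was 2 with a window of 10 kb or at a −log10 q of at least 5, and 1 in gene bodies. The shares of all protein-coding genes under these settings were 5.78%, 4.49% and 3.28%. The intervals of the B and T cell lists overlapped.

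**Figure D5:**
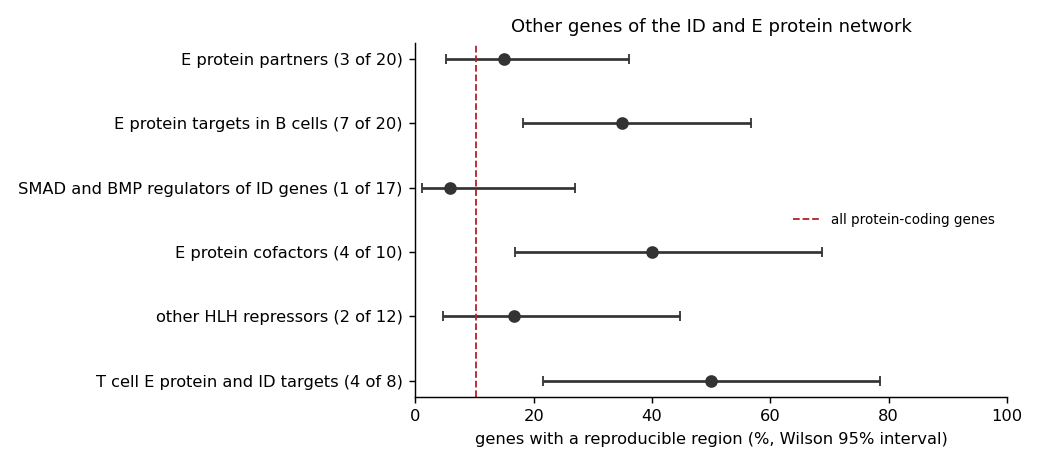
Share of the genes of each list with a reproducible BCL6 region in the gene or within 50 kb (x axis, percent, with Wilson 95% intervals), beside the share of all protein-coding genes (dashed line, 10.2%). The T cell targets, the E protein cofactors and the E protein targets in B cells lie at 50%, 40% and 35%, and the SMAD list lies at 5.88%.

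The genes whose reproducible regions were most like the stronger ID2 region were sought among 526 other protein-coding genes with a summit within 1 kb of an end, by the distance of both log2 fold enrichments over the 2 samples. SLC7A6, an amino acid transporter gene, came first with fold enrichments of 4.14 and 4.95 (distance 0.0617). CD38, a surface marker of plasma cells, had 4.16 and 4.85 (0.0698). BAG4 and its neighbour LSM1 shared 1 region with 4.16 and 4.84 (0.0731). All of these regions had pileups of 28 or fewer, below the 71 and 45 of ID2, so the likeness holds for enrichment alone.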

How the data were processed

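BCL6 CUT&RUN peaks of 2 SUDHL5 replicates were analysed, grouped by the sample titles. The submitters' processing notes name hg38, the read tools FastQC and cutadapt, the aligner Bowtie2, then SAMtools and Picard, the peak caller MACS2, and also deepTools with bedtools. No source used here gives versions, settings or the peak caller's control. The deposited narrowPeak lists were called per sample and hold a fold enrichment (ratio), −log10 p, −log10 q and a summit for each peak. The deposited score column, 10 times the −log10 q, was not used.

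The 7 peaks of each list outside chromosomes 1 to 22 and X were left out, which leaves 5230 and 3529. Whole-number pileups and backgrounds were solved from fold enrichment and −log10 p, within 0.001 for all of these peaks, after the solver was tested on simulated data. Read totals are unknown. Median pileups were 23 and 21, and the intervals (Poisson exact, Wilson) cover counting error only. Genes and promoters came from RefSeq GRCh38.p14 tables, with no genome sequence used. Reproducible regions shared at least 1 bp, and the summit was that with the highest −log10 q. The members and lists were proposed with earlier results of these data known, although the members' rule uses no value. Named were all members, the protein-coding gene nearest each member peak, up to 4 genes per list with the largest smaller fold enrichment, and the 3 genes most like ID2, of which 1 list gene is not reported here. No test was made, because IgG was not analysed here and members are not replicates. Alternatives were other windows, −log10 q of at least 5 or 10, reciprocal overlap of 50%, summits within 200 bp and single replicates. Python 3.11.15, numpy 2.4.6, pandas 2.3.3, scipy 1.17.1 and matplotlib 3.10.9 were used.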

Additional observations from a re-analysis of the deposited data

How the results depend on the processing

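No paired analysis was possible because the IgG libraries that share the replicate numbers were not analysed here. ID2 had a reproducible region under every alternative that used both lists, except the gene body alone. There TCF4 was the 1 gene with such a region, and the share of all protein-coding genes was 3.28%. TCF4 lost its regions at a −log10 q of at least 5 or 10, which left 1 gene, against 4.49% and 2.39% of all protein-coding genes. Reciprocal overlap, summits within 200 bp and any base in the window left 2 genes, ID2 and TCF4, against 7.02%, 7.72% and 10.2% of all protein-coding genes. By the first 2 of these rules both ID2 regions remained, but of the TCF4 regions only that from 55510027. The other TCF4 regions had replicate summits 599 and 207 bp apart. In single replicates 5 genes had peaks (lowest and highest both 5), against 29.5% of all protein-coding genes in replicate 1 and 23.3% in replicate 2. Of 29 member peaks, 18 were in gene bodies, 8 passed a −log10 q of 5 and 2 passed 10, both at ID2, and single replicates gave 12 to 17. The peak density of E protein windows over ID windows, 0.689, was 0.673 with 100 kb, 0.260 with 10 kb, 0.205 in gene bodies, 0.218 and 0 at a −log10 q of at least 5 and 10, and 0.508 to 0.871 in single replicates. The gene body value rests on 1 ID peak, of replicate 2 alone. Of the 87 list genes, the 21 with a region became 5 in gene bodies, 7 and 4 at a −log10 q of at least 5 and 10, 13 by reciprocal overlap, 13 by summits within 200 bp, and 28 to 36 in single replicates. The shares of all protein-coding genes under these settings are those given above. The stronger ID2 region over a TCF4 region, as the mean of the ratios in both replicates, was 1.11 by fold enrichment, 3.76 by −log10 q and 2.87 by pileup. The TCF4 region was that from 55510027 for fold enrichment and −log10 q, and that from 55419463 for pileup. Of the 3 genes most like ID2, 0 stayed by pileup and 1 within 10 kb. The cause of these shifts was not tested, beyond the fewer peaks that stricter settings leave. Unknown depth limits every absence.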
